A study of Mus musculus with 6 samples.

Results

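The genes described here are the cytochrome P450 genes of families 1 to 4, which encode most of the enzymes that oxidise drugs, pollutants and many lipids, together with Por, which encodes their electron donor, and the ligand receptor genes Ahr, Ahrr, Nr1i2 and Nr1i3. They were chosen by gene symbol, a rule that uses no measured value, although earlier results of these data were known. In all, 80 of the 41174 probes on the array carried such a symbol, and these probes stand for 59 of the 16358 genes with a symbol. Of the 59 genes, 54 were P450 genes. A gene entered the test if 2 or more of the 6 arrays read a probe of it well above background, as held for 40 of the 59 genes, among 12968 genes tested in all. The remaining 19 genes were not measured well enough to be tested, namely Cyp1a2, Cyp2a12, Cyp2c29, Cyp2c38, Cyp2c39, Cyp2c54, Cyp2c55, Cyp2c66, Cyp2d34, Cyp2g1, Cyp2j11, Cyp2j5, Cyp3a16, Cyp3a25, Cyp3a41a, Cyp3a44, Cyp4a10, Cyp4a14 and Cyp4f14.

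Total RNA from mouse lung was measured on 6 single-colour arrays, 2 for each of 3 genotypes on the C57BL/6 background. The genotypes are WT, hCD2-T-bet tg/wt and hCD2-T-bet tg/tg, where the transgene raises T-bet, the transcription factor encoded by Tbx21, in T cells, and the series addresses expression in lungs with pulmonary alveolar proteinosis. The transgene thus acts first in T cells, whereas most lung P450 genes are known from other cells. The labels give no age, sex, founder line or number of animals per sample. Nothing in them says that a genotype's 2 arrays hold RNA of different mice, and the p-values then cover no more than array-to-array spread, possibly technical.

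Cytochrome P450 enzymes sit in the membrane of the endoplasmic reticulum and insert an atom of oxygen into their substrates, with electrons passed on by P450 oxidoreductase, the product of Por. Several P450 genes are switched on by ligand receptors. The aryl hydrocarbon receptor (Ahr) drives Cyp1a1 and Cyp1b1 as well as its own repressor, Ahrr, while the pregnane X receptor (Nr1i2) and the constitutive androstane receptor (Nr1i3) are best known for the Cyp3a and Cyp2b genes. In the mouse lung, P450 enzymes are known above all from club cells, the secretory cells of the airway lining, where Cyp2f2 turns naphthalene into a toxic product. Endothelium, alveolar type 2 cells and macrophages hold smaller, distinct sets.

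A level is given below as the log2 of the processed signal minus the 75th percentile of its array, so a level of 0 is a signal at that percentile. Levels of different genes come from different probes, so they rank genes only roughly. Such levels were used across genes only to name the brightest gene of each subfamily and to form the sums over cell type markers. The 75th percentiles ran from 794 to 1204 intensity units and between 62.0% and 66.8% of probes were well above background on each array, with no member probe saturated. Tbx21 had levels of -0.70 and -0.71 on the WT arrays, 1.30 and 1.34 on the tg/wt arrays and 3.25 and 3.26 on the tg/tg arrays, in the order of the labelled transgene dose. The WT and tg/tg arrays were on slide 1 and the tg/wt arrays on slide 2, so in each comparison with tg/wt the genotype and the slide cannot be told apart. Tests are limma's, over all 12968 genes, with Benjamini-Hochberg adjusted p-values and a threshold of 0.05.

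P450 genes were mostly lower in tg/tg lungs than in WT lungs, and only a few were higher. Of the 40 members tested, 22 (55%) fell, 8 (20%) rose and the others did not pass the test. Most genes on the array moved between these genotypes: 74.7% of all genes tested passed the threshold, 33.8% higher and 40.8% lower, so the members' 30 calls in 40 (75%) are no more frequent than the background. They differ from it in direction and size, since 19 members (47.5%) fell by at least 2-fold against 12.3% of all genes tested, and 4 (10%) rose by at least 2-fold against 10.9%. These counts use the fitted differences, and 1 of the 4, Cyp2c40, was below background in WT and has a bound of only 1.44-fold. The median difference over the 40 members was -0.84 on the log2 scale, and over all genes tested -0.05. Among the 32 members well above background on all 6 arrays, 15 (46.9%) fell by at least 2-fold, as did 10.7% of all such genes, and their median was also -0.84. These counts describe the members and were not tested as a list. They include near relatives among the Cyp2a, Cyp2b and Cyp2d genes, whose probes may share transcripts. The members are therefore not all separate readings, in these counts or in those of the other comparisons.

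**Figure D1:**
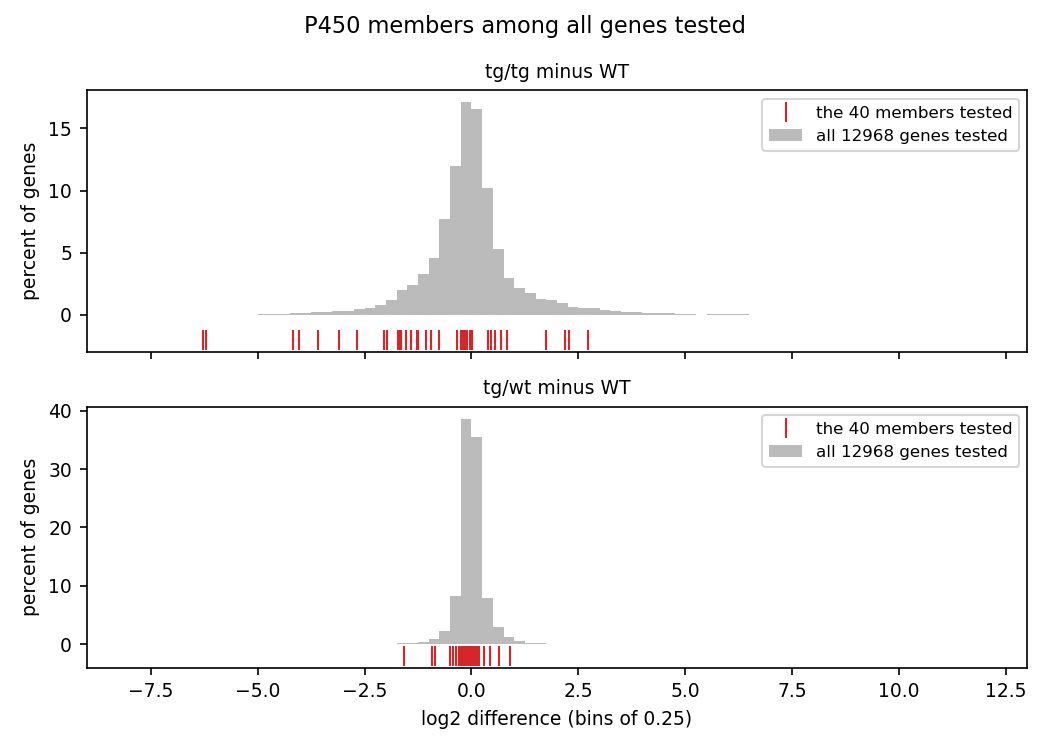
Distribution of fitted log2 differences from WT over all 12968 genes tested (grey bars, percent of genes in bins of 0.25), with each of the 40 tested members as a red tick below the axis, for tg/tg (upper panel) and tg/wt (lower panel). In the upper panel the ticks lie mostly to the left of 0, with a median of -0.84, and in the lower panel most lie close to 0.

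The P450 genes alone (35 tested) had 19 lower, 7 higher and 9 that did not pass, with a median of -0.94. By family, family 2 had 14 of 22 tested genes lower and 3 higher, and family 4 had 3 of 9 lower and 3 higher. Family 3 had 1 of 2 lower, and family 1 had 1 gene lower and 1 higher. Of all genes tested 40.8% were lower and 33.8% higher, so the counts of family 4 are near the background. The 3 family 2 genes called higher, Cyp2c37, Cyp2c40 and Cyp2r1, have limits given below. Among P450 genes well above background on all arrays of both genotypes, the differences ran from -4.17 for Cyp2a4 to 2.29 for Cyp1b1. RNA was taken from whole lung, and in such samples fewer cells of a type and less RNA per cell cannot be told apart.

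**Figure D2:**
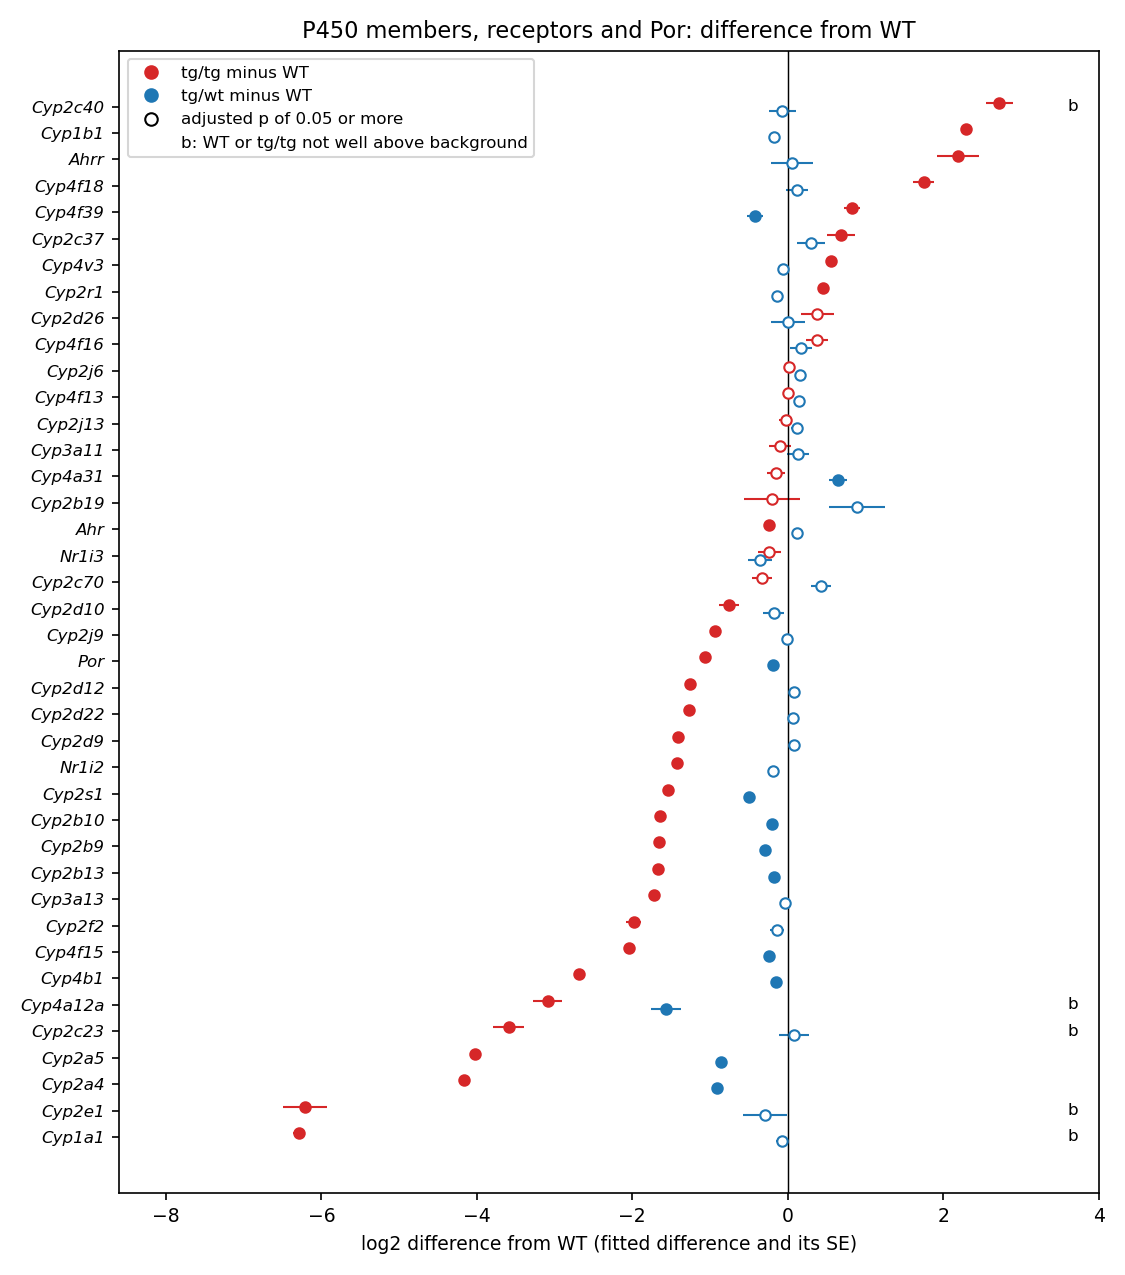
Fitted log2 differences from WT with their standard errors for the 40 tested members, tg/tg in red and tg/wt in blue, ordered by the tg/tg difference. Filled points passed an adjusted p of 0.05, and b marks genes that neither WT array, or neither tg/tg array, read well above background, so that only a bound on the fold can be given. Among genes without a b, the red points reach from -4.17 for Cyp2a4 to 2.29 for Cyp1b1, and the blue points from -0.92 for Cyp2a4 to 0.89 for Cyp2b19.

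The aryl hydrocarbon receptor and its P450 targets did not move together. Ahr itself had WT levels of 2.003 and 2.04, tg/wt levels of 2.11 and 2.17 and tg/tg levels of 1.85 and 1.72. Its fall in tg/tg was small, -0.24 (SE 0.0585, 1.18-fold, adjusted p = 0.0164), and the call was lost without WT replicate 1 (adjusted p = 0.0518) or WT replicate 2 (adjusted p = 0.0763). For Ahrr, the repressor that the receptor induces, the WT arrays gave -4.86 and -5.54, the tg/wt arrays -5.35 and -4.95 and the tg/tg arrays -3.12 and -2.90. Both tg/tg arrays were above all others, and the rise was 4.56-fold (log2 difference 2.19, SE 0.268, adjusted p = 0.00125), with 1 of 2 WT arrays well above background.

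Cyp1a1, the classical target of the receptor and an enzyme that oxidises polycyclic aromatic hydrocarbons, was one of the largest falls among the members. Its WT levels of -1.28 and -1.26 overlapped with the tg/wt levels of -1.27 and -1.42, against -7.65 and -7.48 in tg/tg, where neither array was well above background. The difference gives only an approximate bound. The WT mean was 16.4-fold above the lowest signals, of any probe, well above background on the tg/tg arrays. As measured, the log2 difference was -6.29 (SE 0.0791, adjusted p = 1.06e-06). Cyp1b1, which also oxidises aromatic hydrocarbons and oestradiol, went the other way, from -1.95 and -2.003 (WT) and -2.09 and -2.22 (tg/wt) to 0.30 and 0.33 (tg/tg). That is a 4.89-fold rise (log2 difference 2.29, SE 0.0544, adjusted p = 4.70e-06). With normexp background correction, whose offset of 50 compresses low signals, the difference was -2.64 for Cyp1a1, 0.93 for Ahrr and 1.94 for Cyp1b1, each still past the threshold. Cyp1a2, the other family 1 gene on the array, did not read well above background on a single array.

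**Figure D3:**
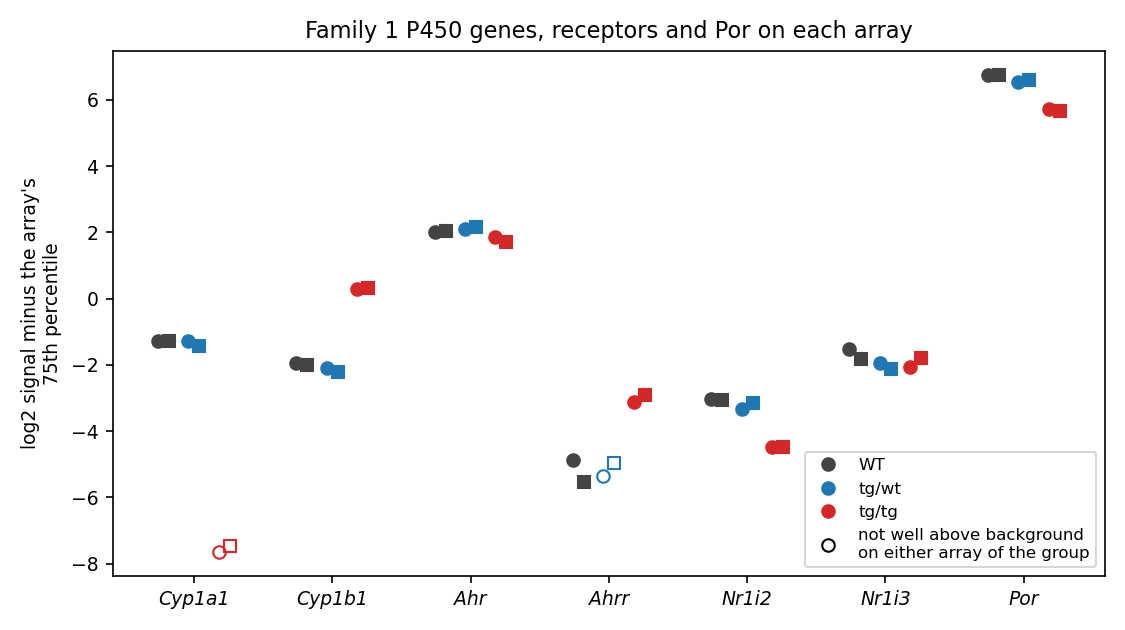
Levels (log2 signal minus the array's 75th percentile) of the family 1 P450 genes, the receptors, Ahrr and Por on each of the 6 arrays, circles for replicate 1 and squares for replicate 2, coloured by genotype. Open symbols mark genes that neither array of the genotype read well above background. In tg/tg, Cyp1a1 lies below -7 while Cyp1b1 and Ahrr lie above both other genotypes.

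The start regions of these 3 targets are shown because the receptor binds DNA at a short core motif, GCGTG, and the genes moved in opposite directions. The windows run from 250 bases before to 50 bases after the RefSeq start on GRCm38.p6, at chr9:57697363-57697662 (plus strand), chr17:79715012-79715311 (minus strand) and chr13:74292282-74292581 (minus strand). Each is written 5′ to 3′ along the gene, with the motif in capitals. A match on the opposite strand reads CACGC.
Cyp1a1: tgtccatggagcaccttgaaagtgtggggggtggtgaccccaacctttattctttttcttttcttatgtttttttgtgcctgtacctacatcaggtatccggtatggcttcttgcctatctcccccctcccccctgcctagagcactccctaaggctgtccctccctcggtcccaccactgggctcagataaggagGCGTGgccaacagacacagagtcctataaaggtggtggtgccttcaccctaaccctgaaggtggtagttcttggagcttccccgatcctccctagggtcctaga
Cyp1b1: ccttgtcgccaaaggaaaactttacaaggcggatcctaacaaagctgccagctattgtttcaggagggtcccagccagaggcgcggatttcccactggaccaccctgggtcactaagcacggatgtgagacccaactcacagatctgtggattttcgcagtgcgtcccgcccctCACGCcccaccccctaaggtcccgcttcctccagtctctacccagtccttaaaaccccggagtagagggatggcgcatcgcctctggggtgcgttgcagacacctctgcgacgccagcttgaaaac
Ahrr: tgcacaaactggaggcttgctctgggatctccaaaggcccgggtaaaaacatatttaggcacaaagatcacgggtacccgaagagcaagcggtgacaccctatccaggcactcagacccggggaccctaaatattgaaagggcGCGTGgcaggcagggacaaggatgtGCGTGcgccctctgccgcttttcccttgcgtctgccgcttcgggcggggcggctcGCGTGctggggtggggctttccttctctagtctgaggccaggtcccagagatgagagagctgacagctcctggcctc
The window of Ahrr held 3 copies of the motif, and those of Cyp1a1 and Cyp1b1 held 1 each. The motif is common: read on both strands, it occurred in 32.4% of 32851 promoter windows of this length and in 46.7% of those of genes tested here. Windows were on hand for 34 of the 40 tested members, 11 of which had the motif. It was present for 5 of the 8 members that rose in tg/tg and 4 of the 17 members with a window that fell. These are matches of letters within a short window, and well-studied enhancer sites of Cyp1a1 lie further upstream, outside it.

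Other genes known to be induced through the receptor fell or did not pass the test in tg/tg. Of 6 tested target genes outside the P450 families, 4 were lower and none of the 6 was higher, with a median of -0.96. Gsta1, a glutathione transferase gene, went from 1.58 and 1.60 in WT to -1.87 and -1.83 in tg/tg, a 10.9-fold fall (adjusted p = 6.64e-07). Nqo1, which encodes a quinone reductase, fell by 1.72 on the log2 scale (3.29-fold, adjusted p = 2.01e-05). Aldh3a1, an aldehyde dehydrogenase gene, was at least 2.46-fold lower in the main fit (adjusted p = 3.39e-04). Its difference was -1.54 there and as small as -0.51 over the alternatives, so this bound is approximate.

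The pregnane X receptor gene fell and the constitutive androstane receptor gene showed no difference past the threshold. Nr1i2 gave -3.04 and -3.07 on the WT arrays, -3.33 and -3.16 on the tg/wt arrays and -4.48 on both tg/tg arrays, a 2.68-fold fall (log2 difference -1.42, SE 0.0626, adjusted p = 3.08e-05). After normexp correction the difference was -0.69. Nr1i3 overlapped between the genotypes, with -1.52 and -1.83 in WT and -2.05 and -1.78 in tg/tg (adjusted p = 0.208). Of 16 tested genes for other ligand receptors and their partners, 4 rose, 7 fell and 5 did not pass, with a median of -0.09. Ppara, the fatty acid receptor that drives Cyp4a genes, was 3.01-fold lower (from -1.48 and -1.51 to -3.04 and -3.12, adjusted p = 1.35e-05). Nr1h4, the bile acid receptor gene, was 2.998-fold higher (adjusted p = 3.01e-04), and Pparg, a regulator of fat and alveolar macrophages, was 1.94-fold lower (adjusted p = 4.45e-05).

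Of the Cyp2b genes, best known in liver for their response to xenobiotics, 3 of 4 tested fell. Cyp2b10, the standard target of the constitutive androstane receptor, read 2.74 and 2.79 on the WT arrays, 2.57 and 2.55 on the tg/wt arrays and 1.07 and 1.17 on the tg/tg arrays. It fell 3.12-fold (log2 difference -1.64, SE 0.0471, adjusted p = 7.84e-06). Cyp2b9 went from 4.72 and 4.73 to 3.07 and 3.07 (3.14-fold, adjusted p = 3.10e-06), and Cyp2b13 from 3.65 and 3.69 to 2.04 and 1.96 (3.18-fold, adjusted p = 6.65e-06). The 3 falls were thus close to one another in size, between 3.12- and 3.18-fold. A second, dimmer probe of Cyp2b9 fell as well, by 1.57 on the log2 scale, and a second probe of Cyp2b13 was well above background on only 4 of 6 arrays. The start windows of Cyp2b9 and Cyp2b13 were 99.3% identical in sequence and each was 80.1% identical to that of Cyp2b10. The probes may share transcripts, which these windows cannot show, so the 3 genes are not taken as separate evidence. Cyp2b19, known from skin, overlapped between WT and tg/tg (difference -0.20, adjusted p = 0.633).

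Family 3 holds the main drug oxidising enzymes of liver and gut, and little of it was measured in lung: 4 of 6 genes on the array were not tested. Cyp3a13 fell from -0.78 on both WT arrays to -2.56 and -2.45 in tg/tg, with tg/wt at -0.83 and -0.80 (3.30-fold, log2 difference -1.72, SE 0.0474, adjusted p = 6.91e-06). Cyp3a11, the pregnane X receptor's best known liver target, had -3.78 and -3.70 in WT and -3.71 and -3.96 in tg/tg, which overlapped (adjusted p = 0.568).

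Por, without which microsomal P450 enzymes cannot work, also fell in tg/tg. Levels of 6.77 and 6.76 (WT), 6.55 and 6.60 (tg/wt) and 5.72 and 5.68 (tg/tg) were read, so that the 3 genotypes did not overlap and lay in the order of the transgene dose. The fall in tg/tg was 2.09-fold (log2 difference -1.06, SE 0.0361, adjusted p = 1.33e-05). Among 17 tested genes for other electron partners and for the making and breakdown of haem, the P450 cofactor, 6 rose, 7 fell and 4 did not pass, with a median of -0.11. Cyb5a, which encodes the second electron donor cytochrome b5, fell 2.10-fold (from 4.98 and 4.95 to 3.89 and 3.91, adjusted p = 1.03e-05), and Pgrmc1, a haem-binding P450 partner, fell 2.37-fold (adjusted p = 5.14e-04). Hmox1, which encodes the haem oxygenase that breaks haem down, rose 8.26-fold, from 1.88 and 1.84 (WT) and 1.95 and 2.03 (tg/wt) to 4.89 and 4.92 (tg/tg) (adjusted p = 1.33e-06).

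Cyp2a4 and Cyp2a5 had the largest falls among members that stayed well above background on all 6 arrays. Cyp2a5 encodes the coumarin 7-hydroxylase and Cyp2a4 a steroid hydroxylase. For Cyp2a5 the WT arrays gave 6.55 and 6.58, the tg/wt arrays 5.69 and 5.72 and the tg/tg arrays 2.52 and 2.56. For Cyp2a4 the values in the same order were 5.09 and 5.10, 4.21 and 4.16, and 0.88 and 0.98. Each genotype stood apart from the other two. In tg/tg the fall was 16.3-fold for Cyp2a5 (log2 difference -4.03, SE 0.0359, adjusted p = 6.38e-07) and 17.95-fold for Cyp2a4 (log2 difference -4.17, SE 0.0492, adjusted p = 8.99e-07). In tg/wt it was 1.81-fold for Cyp2a5 (adjusted p = 5.14e-04) and 1.89-fold for Cyp2a4 (adjusted p = 9.21e-04). A second probe of each gene gave the same order of genotypes, for example 6.07 and 6.03, 5.14 and 5.19, and 1.82 and 1.89 for Cyp2a5.

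These 2 genes are near copies, as their start windows show (chr7:26306942-26307241 and chr7:26835089-26835388, both on the plus strand of GRCm38.p6, from RefSeq). They are printed with the aligned bases that differ in capitals.
Cyp2a4: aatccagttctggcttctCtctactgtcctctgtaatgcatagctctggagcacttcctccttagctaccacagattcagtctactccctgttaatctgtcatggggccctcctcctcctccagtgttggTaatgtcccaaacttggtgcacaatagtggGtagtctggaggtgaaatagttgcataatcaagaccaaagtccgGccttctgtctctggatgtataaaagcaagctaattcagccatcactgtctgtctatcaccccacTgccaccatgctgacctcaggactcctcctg
Cyp2a5: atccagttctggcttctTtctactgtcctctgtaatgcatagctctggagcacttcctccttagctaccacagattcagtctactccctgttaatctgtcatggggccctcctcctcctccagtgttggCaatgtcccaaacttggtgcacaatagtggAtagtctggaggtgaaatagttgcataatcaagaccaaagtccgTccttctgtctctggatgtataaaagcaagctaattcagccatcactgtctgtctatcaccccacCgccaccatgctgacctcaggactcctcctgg
Of 299 aligned bases 294 (98.3%) were identical and 5 differed. With copies this alike, a probe may read both transcripts, and whether both genes or 1 of them fell is uncertain.

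The P450 genes best known from the airway lining fell as well. Cyp2f2 stood at 8.28 and 8.24 (WT), 7.998 and 8.25 (tg/wt) and 6.23 and 6.33 (tg/tg), so WT and tg/wt overlapped and tg/tg stood apart. It fell 3.95-fold (log2 difference -1.98, SE 0.0937, adjusted p = 3.91e-05). Cyp4b1, which activates the lung toxin 4-ipomeanol, went from 6.49 and 6.48 (WT) and 6.30 and 6.37 (tg/wt) to 3.80 and 3.81 (tg/tg). That is a 6.415-fold fall (log2 difference -2.68, SE 0.0386, adjusted p = 1.34e-06). Cyp2s1, an epithelial P450 that also responds to the aryl hydrocarbon receptor, separated all 3 genotypes, with 6.00 and 5.98, 5.49 and 5.4985, and 4.43 and 4.47 (2.91-fold lower in tg/tg, SE 0.0333 on the log2 scale, adjusted p = 3.71e-06).

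Markers of the airway lining moved with these genes. All 7 tested club cell genes were lower in tg/tg, and their summed level, as a multiple of the 75th percentile, went from 638 and 632 (WT) through 463 and 555 (tg/wt) to 380 and 326 (tg/tg). That sum is mostly Scgb1a1, the main club cell secretory gene, which fell least, by 1.51-fold (log2 difference -0.59, SE 0.132, adjusted p = 0.0112). The other club cell genes fell by more: Bpifa1 18.2-fold, Chad 5.48-fold, Aldh1a7 3.55-fold, Scgb3a1 3.53-fold, Muc5b 1.97-fold and Reg3g 1.83-fold. The median over the 7 was -1.82, and all were well above background on the 6 arrays. All 6 tested ciliated cell genes were lower, with summed levels of 67.4 and 65.8 in WT and 19.7 and 20.6 in tg/tg. The alveolar type 2 genes had 2 of 8 higher and 3 lower, with sums of 1084 and 1023 in WT and 1300 and 1145 in tg/tg, and 4 of 5 alveolar type 1 genes were lower. Genes of endothelium, another site where Cyp1a1 can be induced, fell in 7 of 7 cases, with sums of 132 and 134 in WT and 49.0 and 49.2 in tg/tg. Of the smooth muscle and pericyte genes 5 of 6 were lower, of the alveolar macrophage genes 5 of 6 were lower and 1 higher, and of the B cell genes 3 of 4 were lower. The part of these cell types in the falls of Cyp2a5, Cyp2f2, Cyp2s1, Cyp4b1 and the other members was not tested.

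**Figure D4:**
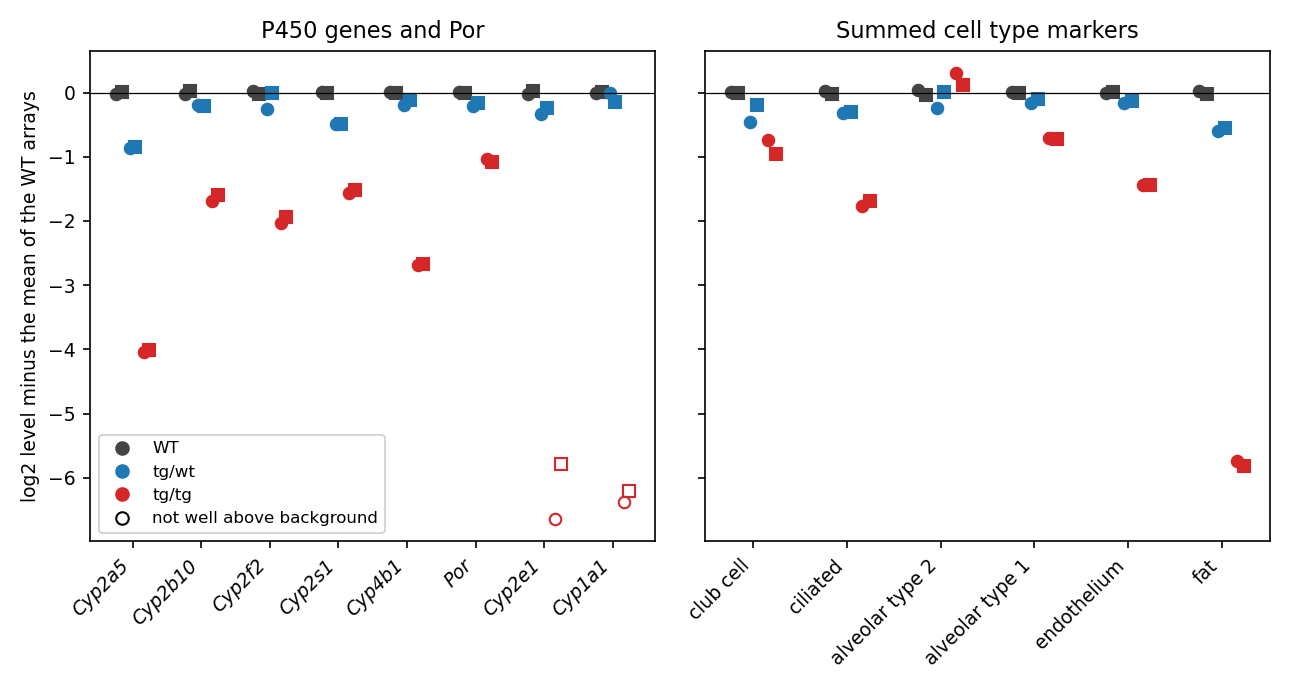
Log2 levels relative to the mean of the WT arrays for 7 P450 genes and Por (left) and for the summed markers of 6 cell types (right), with 1 symbol per array, circles for replicate 1 and squares for replicate 2. Open symbols are not well above background. In tg/tg all 8 genes on the left lie below the WT line, as do the markers on the right except those of alveolar type 2 cells. The club cell sum is mostly Scgb1a1.

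Cyp2e1, the ethanol oxidising P450 known from liver, fat and lung, fell out of the measurable range in tg/tg. The WT arrays gave -1.07 and -1.03, the tg/wt arrays -1.39 and -1.29 and the tg/tg arrays -7.69 and -6.83, with neither tg/tg array well above background. The bound is a fall of at least 19.1-fold (log2 difference as measured -6.21, SE 0.284, adjusted p = 3.49e-05), and after normexp correction the difference was -2.78. All 5 tested fat cell genes fell too, with summed levels of 26.7 and 25.6 (WT), 17.2 and 17.8 (tg/wt) and 0.490 and 0.462 (tg/tg), and a median difference of -5.77 in tg/tg. All 6 tested heart muscle genes were lower, with sums of 194 and 191 in WT and 10.7 and 11.2 in tg/tg. Of 6 liver markers on the array, Apoa1, Ttr, Apoc3 and Fgb did not pass the filter, and both that were tested fell. Alb was at -4.15 and -4.24 in WT and not well above background in tg/tg, a fall of at least 2.16-fold (adjusted p = 6.41e-05), and Tat fell by 0.43 on the log2 scale (adjusted p = 0.0246). The pair summed to 0.215 and 0.209 (WT), 0.222 and 0.243 (tg/wt), and 0.117 and 0.141 (tg/tg). The part of fat, heart or liver tissue in the fall of Cyp2e1 or Cyp1a1 was not tested.

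Many Cyp2c enzymes form fatty acid epoxides or act on steroids, and 6 of 10 on the array were not tested. Cyp2c23, a kidney epoxygenase gene, was at -4.14 and -3.56 (WT), -3.72 and -3.81 (tg/wt) and -7.37 and -7.51 (tg/tg), at least 2.75-fold lower (adjusted p = 6.67e-05). After normexp correction the difference was -0.84. Cyp2c40 was well above background only in tg/tg, at -5.01 and -5.03, and was at least 1.44-fold higher there. It entered the test only through the arrays on which it was high, and a second probe was too dim to be tested, so its call supports nothing further.

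Cyp2c37 gave no settled direction. Its brighter probe stood at -5.17 and -5.58 in WT and -4.69 on both tg/tg arrays (difference 0.69, SE 0.18, adjusted p = 0.0201), with 1 of 2 WT arrays well above background. The dimmer probe, well above background on only 2 of 6 arrays, overlapped between WT (-6.49 and -5.91) and tg/tg (-6.22 and -6.67). The call was lost without WT replicate 2 (0.48, adjusted p = 0.0642) and without either tg/tg array (adjusted p = 0.0759 in each case). Cyp2c70, which makes the mouse bile acids called muricholic acids in liver, did not pass against WT (difference -0.33, adjusted p = 0.0713), while without tg/tg replicate 1 it did (-0.53, adjusted p = 0.00122). Against tg/wt it was 1.70-fold lower in tg/tg (adjusted p = 0.00458).

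In the Cyp2d group, relatives of the human drug enzyme CYP2D6, 4 of 5 tested genes fell. Cyp2d9, a steroid hydroxylase gene, went from 0.07 and 0.06 on the WT arrays and 0.12 and 0.17 on the tg/wt arrays to -1.31 and -1.38 on the tg/tg arrays (2.66-fold, log2 difference -1.41, SE 0.042, adjusted p = 8.86e-06). Cyp2d22 went from -2.11 and -2.14 to -3.37 and -3.42 (2.42-fold, adjusted p = 7.22e-06) and Cyp2d12 from -1.82 and -1.84 to -3.15 and -3.03 (2.40-fold, adjusted p = 2.23e-05). For Cyp2d22 the difference was -1.27, and -0.84 after normexp correction. Cyp2d10 fell by less (1.69-fold, adjusted p = 0.00474), and Cyp2d26 overlapped between WT and tg/tg. The Cyp2d genes are close relatives, and probes may share their transcripts.

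The arachidonic acid epoxygenase genes of the Cyp2j group did not move alike. Cyp2j9 fell 1.91-fold, with levels between -0.02 and 0.04 in WT and tg/wt and of -0.86 and -0.97 in tg/tg (log2 difference -0.94, SE 0.0501, adjusted p = 6.01e-05). Cyp2j6 (difference 0.02) and Cyp2j13 (difference -0.03) overlapped between WT and tg/tg, with adjusted p-values of 0.753 and 0.774. Of the 3 family 2 genes called higher, Cyp2c37 and Cyp2c40 have the limits given above. The third, the vitamin D 25-hydroxylase gene Cyp2r1, went from -4.06 and -4.18 (WT) and -4.24 and -4.28 (tg/wt) to -3.70 and -3.62 (tg/tg) (1.37-fold, adjusted p = 0.00138). After normexp correction its difference of 0.15 did not pass (adjusted p = 0.0892).

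Family 4 enzymes hydroxylate fatty acids and eicosanoids at or near the end of the chain. Of its 9 tested genes 3 rose and 3 fell in tg/tg. These shares are near those of all genes tested (33.8% higher and 40.8% lower). Cyp4f18, which inactivates leukotriene B4 in neutrophils and other myeloid cells, rose 3.36-fold, from WT levels of 0.52 and 0.50 and tg/wt levels of 0.58 and 0.67 to tg/tg levels of 2.05 and 2.46 (log2 difference 1.75, SE 0.138, adjusted p = 2.46e-04). Cyp4f15, another member able to act on leukotriene B4, fell 4.11-fold, from 0.31 and 0.19 on the WT arrays and 0.02 and 0.01 on the tg/wt arrays to -1.77 and -1.79 on the tg/tg arrays (log2 difference -2.04, SE 0.0495, adjusted p = 5.03e-06). These members of 1 subfamily therefore changed in opposite directions. Of the myeloid markers, 6 of 6 tested neutrophil genes were higher in tg/tg. Their sums were 55.1 and 53.6 in WT and 65.4 and 63.6 in tg/tg. In tg/wt 6 of 6 neutrophil genes were lower (sums of 14.3 and 13.9) and 5 of 6 monocyte and macrophage genes higher (median 0.70). Cyp4f18 did not pass in tg/wt (difference 0.12, adjusted p = 0.560). In tg/tg 5 of 6 monocyte and macrophage genes were higher, with a median of 3.98. These were Ms4a7 (30.3-fold), Fcgr1 (22.4-fold), C1qb (16.7-fold), C1qa (14.9-fold) and Adgre1 (difference 3.104). The summed level, 304 and 310 in WT and 495 and 448 in tg/tg, is mostly Lyz2, which did not pass (difference 0.18, adjusted p = 0.330). T cell genes rose in 5 of 5 cases, from sums of 2.19 and 2.08 to 30.4 and 31.0. The part of these cells in the rise of Cyp4f18 was not tested.

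Cyp4f39, related to the human enzyme that makes very long omega-hydroxy fatty acids for the skin barrier, was the only member called in opposite directions in the 2 transgenic genotypes. Levels of -2.64 and -2.67 (WT), -3.01 and -3.14 (tg/wt) and -1.97 and -1.69 (tg/tg) did not overlap. In tg/tg the level was 1.77-fold above that of WT (difference 0.82, SE 0.105, adjusted p = 0.00146) and in tg/wt 1.34-fold below it (difference -0.42, adjusted p = 0.0430). Cyp4v3, a fatty acid hydroxylase gene, rose 1.47-fold, from 0.98 and 1.04 to 1.55 and 1.58 (adjusted p = 1.31e-04). Cyp4f13 overlapped between WT and tg/tg, and Cyp4f16 did not pass at its brighter probe (difference 0.38, adjusted p = 0.0623), although its second probe differed by 0.83 (adjusted p = 8.25e-04 in the fit of single probes).

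The 2 tested Cyp4a genes differed from the rest in tg/wt. Cyp4a12a, which forms the vasoactive lipid 20-HETE and is higher in males than females in liver and kidney, fell stepwise from -2.48 and -2.52 (WT) through -3.95 and -4.18 (tg/wt) to -5.85 and -5.33 (tg/tg). It was 2.96-fold lower in tg/wt (log2 difference -1.57, SE 0.188, adjusted p = 0.00682) and at least 7.004-fold lower in tg/tg (adjusted p = 9.42e-05), where neither array was well above background, and normexp correction gave -0.91 for tg/wt and -1.26 for tg/tg. A second probe was well above background on only 2 of 6 arrays and gives no further measure. The Y-linked gene Eif2s3y read 1.65 and 1.55 (WT), 0.96 and 0.87 (tg/wt) and 1.91 and 2.04 (tg/tg), so it was detected on every array and was lowest in tg/wt. The part of the animals' sex in the fall of Cyp4a12a was not tested. Cyp4a31, a fatty acid hydroxylase gene, was the only member called higher in tg/wt in the main fit. It read -2.13 and -2.08 against -2.64 and -2.88 in WT (1.57-fold, adjusted p = 0.0192). In tg/tg it overlapped with WT, and a second probe was well above background on 0 of 6 arrays. That call was lost without WT replicate 2 (0.53, adjusted p = 0.0723), tg/wt replicate 1 (0.68, adjusted p = 0.0737) or tg/wt replicate 2 (0.62, adjusted p = 0.0934).

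In lungs with the heterozygous transgene fewer members were called against WT than in tg/tg lungs, and all calls but that of Cyp4a12a were below 2-fold. Of 40 tested members, 11 (27.5%) were lower and 1 (2.5%) was higher than in WT, against 14.6% and 13.4% of all genes tested, and the median was -0.06. Together 30% of the members and 27.9% of all genes passed the threshold. Beside Cyp4a12a, Cyp2a4 and Cyp2a5 the lower members were Cyp2s1 (difference -0.49, adjusted p = 0.00147), Cyp4f39, Cyp2b9 (-0.29, adjusted p = 0.00609), Cyp4f15 (-0.24, adjusted p = 0.0281), Cyp2b10 (-0.20, adjusted p = 0.0364), Por (-0.19, adjusted p = 0.0230), Cyp2b13 (-0.18, adjusted p = 0.0431) and Cyp4b1 (-0.15, adjusted p = 0.0466). Only Cyp4a12a fell by at least 2-fold (after normexp correction its difference was -0.91), as did 0.925% of all genes tested, and 0 members rose by as much, as did 1.1% of all genes. Cyp1a1, Cyp2e1 and Cyp2f2, all far lower in tg/tg, had tg/wt differences of -0.08, -0.29 and -0.14 that did not pass (adjusted p of 0.50, 0.477 and 0.325). For Cyp2e1 this depends on the setting. Its tg/wt fall passed with the deposited series table (adjusted p = 0.0482) and a floor on low values (0.0334). It also passed with normexp correction (0.0430) and only the groups compared (0.0289). For this comparison, leaving out a tg/tg array amounts to the last of these settings, so it is no further check. Markers also differed in tg/wt: 5 of 7 club cell genes, 4 of 6 ciliated cell genes, 3 of 5 fat genes, 6 of 6 heart muscle genes (sums of 95.5 and 96.2) and 6 of 6 neutrophil genes (sums of 14.3 and 13.9) were lower than in WT. In the same comparison 4 of 4 B cell genes, 5 of 6 monocyte and macrophage genes and 4 of 5 T cell genes were higher. So were 3 of 6 smooth muscle and pericyte genes and 3 of 8 alveolar type 2 genes. Of 6 alveolar macrophage genes 3 were higher and 1 was lower, and of 7 endothelial genes 1 was higher and 2 were lower. The part of these cells in the results was not tested. With the replicate number as a block, 6 members rather than 11 were lower in tg/wt, and the calls of Cyp2b10, Cyp2b13, Cyp4b1, Cyp4f39 and Por were lost. These 5, and Cyp4f15, were also lost when single arrays were left out, which left between 5 and 11 members lower: 5 without WT replicate 1 or tg/wt replicate 1, and 6 without WT replicate 2 or tg/wt replicate 2.

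Set directly against tg/wt, the tg/tg lungs had 26 members (65%) lower and 7 (17.5%) higher, where 40.2% and 34% of all genes tested were lower and higher, and the P450 genes alone had a median of -1.05. Calls in either direction covered 82.5% of the members and 74.2% of all genes. Falls of at least 2-fold were seen for 19 members (47.5%) and 11.2% of all genes, and rises of that size for 5 members (12.5%), Cyp2c40 with its bound of 1.42-fold among them, and 9.85% of all genes. This comparison shares the tg/tg arrays with the comparison against WT. The differences of Cyp1a1 (-6.21, at least 15.5-fold), Cyp2e1 (-5.92, at least 15.6-fold), Cyp2c23 (-3.67, at least 2.90-fold) and Cyp4b1 (-2.53, 5.78-fold) were close to those against WT, while for Cyp2a5 (-3.17, 8.999-fold) and Cyp2s1 (-1.05, 2.07-fold) part of the fall had already been seen in tg/wt. Cyp1b1 (2.47, 5.53-fold), Ahrr (2.14, 4.40-fold as measured), Cyp4f18 (1.63, 3.096-fold) and Cyp4f39 (1.25, 2.37-fold) were higher in tg/tg here too. So were Cyp4v3 (0.62), Cyp2r1 (0.60) and Cyp2c40. Neither tg/wt array read Ahrr well above background.

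Most of the genes for other oxidising and conjugating enzymes, which act beside or after the P450 families, were lower in tg/tg. Of 25 tested genes for other oxidation of drugs and aldehydes, 23 were lower and 2 higher in tg/tg, with a median of -1.82. The carboxylesterase genes Ces1f (26.4-fold, from 0.95 and 0.96 to -3.80 and -3.74, adjusted p = 6.38e-07) and Ces1g (12.6-fold, adjusted p = 1.17e-05) and the alcohol dehydrogenase gene Adh7 (14.1-fold, adjusted p = 1.30e-05) had its largest changes. Of 21 tested genes for conjugation, in which an oxidised compound is joined to a soluble group, 18 were lower and 2 higher, with a median of -0.81. Gsta3, another glutathione transferase gene, fell 7.44-fold (adjusted p = 1.62e-06), and Sult1d1, a sulfotransferase gene, fell 6.54-fold (adjusted p = 1.65e-06). The sulfotransferase gene Sult1c2 was at least 1.65-fold lower in the main fit (adjusted p = 5.72e-06). Its difference was -2.985 there and as small as -0.52 over the alternatives, so this bound is approximate. In tg/wt 9 of the 25 oxidation genes and 12 of the 21 conjugation genes were lower, with medians of -0.12 and -0.18. Aldh1a7 stands both in the oxidation list and among the club cell markers, Nfe2l2 in 2 of the lists and Ephx2 in 2.

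The eicosanoid enzymes and the P450 families above 4 were mixed. Of 17 tested eicosanoid genes 8 rose and 7 fell in tg/tg, with a median of -0.02. Hpgd, which breaks down prostaglandins, fell 16.5-fold (from 4.87 and 4.96 to 0.94 and 0.80, adjusted p = 2.17e-06). Tbxas1, the thromboxane synthase gene, rose 4.95-fold (adjusted p = 1.24e-06). Hpgds, a prostaglandin D synthase gene, was at least 6.25-fold higher in the main fit (adjusted p = 0.00116). Its difference was 3.75 there and as small as 1.33 over the alternatives, so this bound is approximate. Of 9 tested P450 genes of families above 4, 4 rose and 4 fell, with a median of -0.13. Cyp7b1, an oxysterol hydroxylase gene, rose 4.80-fold, from 0.86 and 0.89 to 3.17 and 3.11 (adjusted p = 2.01e-06). Cyp39a1 and Cyp27a1, which also act on oxysterols and cholesterol, fell 2.69-fold (adjusted p = 2.39e-05) and 2.54-fold (adjusted p = 1.25e-05).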

How the data were processed

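Cy3-labelled cRNA from lung was hybridised to 44K Agilent arrays, per the labels' protocols. The deposited scanner files hold intensity values, background-subtracted and detrended within each array, per the file headers, which name Feature Extraction 9.5.3.1, while the submitters' processing notes name 9.1. The deposited series table equals the background-subtracted intensity of all 45018 features (relative tolerance 1e-04), linear, uncentred and unscaled, with medians of 88.2 and 86.8 (WT), 115 and 87.0 (tg/wt) and 74.4 and 92.2 (tg/tg). This table served as an alternative source.

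The values analysed are log2 processed intensities from which the array's own 75th percentile was subtracted, without control spots and spots with an outlier mark. Symbols came from matching accessions to RefSeq (GRCm38.p6), which named 22951 of 41174 probes. Each gene took its probe with the highest mean among probes well above background on at least 2 of 6 arrays. A single fit of the 3 group means with limma 3.58.1 (R 4.3.3) had 3 residual and 1.77 prior degrees of freedom, and the code was tested on simulated data. Where neither array of a group was well above background, a fold is a bound. It is taken against, per array, the higher of the probe's own signal and the lowest signal of any probe well above background. A probe above that signal can still fail to count as well above background, as Ahrr did on the tg/wt arrays, so the bounds are approximate. Promoter windows were aligned with Biopython 1.88, and figures drawn with Python 3.11.15 and matplotlib 3.10.9.

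Members and gene lists were chosen with earlier results of these data known. By rule, the text names the receptors and Por, P450 genes changed at least 2-fold in tg/tg, the brightest of each subfamily, up to 8 in each direction in the comparisons with tg/wt, genes with opposite calls or disagreeing probes, and 3 genes per list. The other tested members are named to account for all 40. Alternatives were the background correction (normexp on median signals, offset 50), scaling, filter, probe choice, variance model, groups fitted, slide, replicate block, a floor and leaving out each array. The number of arrays, 2 per genotype, limits the precision.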

Additional observations from a re-analysis of the deposited data

Results flagged for a closer look

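Cyp4f39 responded differently in the 2 transgenic genotypes. Against WT its difference was 0.82 in tg/tg and -0.42 in tg/wt, and the test of the difference between the 2 responses, which is tg/tg against tg/wt, gave 1.25 (SE 0.105, limma adjusted p = 3.22e-04), with both arrays of each genotype on the stated side of WT. Cyp4f39 was flagged because of these calls, the last included, so they are no separate support. Both responses use the same WT arrays. The tg/wt arrays were on another slide, so genotype and slide cannot be told apart for the 1.25 or for the tg/wt fall. That fall did not pass with the deposited series table, without the filter on dim probes, with the replicate block, or without any single WT or tg/wt array (adjusted p between 0.0538 and 0.171), whereas the tg/tg rise passed in all of the alternatives run.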

How the results depend on the processing

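Of 71 called comparisons of named members, 63 kept their call under all alternatives other than leaving out an array and 62 when each array was left out in turn. All the losses but those of Ahr, Cyp2c37 and Cyp2r1, given above, were in tg/wt against WT. The single reversal was Cyp2c37, tg/tg against tg/wt, -0.44 with a gene's probes averaged (0.39 otherwise, not called). In tg/wt against WT, 2 rather than 1 members were higher with the deposited series table, every probe on its own, averaged probes, only the groups compared or quantile scaling, and 3 with an intensity trend or with probes well above background on all arrays. There 6 rather than 11 were lower without the filter or with the replicate block, and 2408 rather than 3619 of all genes were called without the filter. The causes were not tested. Leaving out 1 array gave 8582 to 9504 called genes in tg/tg against WT, 8715 to 9302 in tg/tg against tg/wt and 1397 to 3472 in tg/wt against WT (1397 without WT replicate 1, 1472 without WT replicate 2, 1464 without tg/wt replicate 2). Members were then 7 to 9 higher and 21 to 23 lower in tg/tg against WT, 7 to 8 and 23 to 26 against tg/wt, and 0 to 2 and 5 to 11 in tg/wt against WT. Same-numbered arrays share only a number: their deviations correlated at 0.129 (WT and tg/wt), -0.05 (WT and tg/tg) and -0.05 (tg/wt and tg/tg), so the replicate block is no pairing, and it changed no call of a named member in tg/tg against WT. Genes near background have bounds only, and 2 arrays per genotype limit every estimate of spread.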
